A study of Mus musculus with 4 samples.

Results

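The 36 genes described here encode proteins of the sperm acrosome and of sperm-egg binding and fusion. They were chosen by symbol from a fixed list, and each was found once among the 55450 genes of the count tables. Their transcripts were counted in cells of the dissociated mouse testis, captured in droplets (10x Genomics, 3′ chemistry of version 3). Of the 4 libraries, HFD 1 and HFD 2 came from animals fed a high-fat diet (HFD), and ND 1 and ND 2 from animals fed a normal diet (ND). The labels name the tissue and the diet and no further treatment. Strain, age, length of feeding and the number of animals behind a library are not given in the sources used here. The p-values below therefore measure the spread between libraries, which may be technical.

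The acrosome is a large secretory vesicle that grows from the Golgi apparatus and caps the nucleus of the round spermatid. It holds proteases, hyaluronidases and matrix proteins that are released when the sperm meets the egg coat. Proteins of the acrosomal membrane, of which IZUMO1 is the best known, are then exposed and take part in binding and fusing with the egg. ADAM proteins of the sperm surface are assembled earlier with chaperones and partners such as TEX101, and they are needed for passage into the oviduct and binding to the egg coat.

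Upstream sequences were available from RefSeq (GRCm38.p6) for 28 of the 36 genes, with 35 start sites in all. They were searched on both strands for the cAMP response element that the spermatid factor CREM binds, as the core site TGACG and as the palindrome TGACGTCA, which contains the core site. Within the 250 bases before the start, the core site was present in 28.6% of the 35 start sites of these genes and in 17.8% of all 32851 start sites in the table. The palindrome was present in 1 of the 35 and in 1.55% of all. The RFX core site GTTGCC was present in 14.3% and 10.4%, and the MYB motif CCGTTA in 5.71% and 2.18%. The windows of 6 genes follow, on the gene's strand, from 5′ to 3′, with core sites in capitals. Spata16 and Prss21 are shown because both HFD libraries were above both ND libraries in all 5 stages, and Spaca1, Spaca3, Izumo1 and Acrv1 as genes that peaked in round spermatid-like cells and were called lower in HFD in an earlier stage, with and without a core site. The windows of Spata16 (chr3:26637381-26637630, plus strand) and Prss21 (chr17:23867822-23868071, plus strand) held 0 core sites. Those of Spaca1 (chr4:34050066-34050315, minus strand), Spaca3 (chr11:80858113-80858362, plus strand) and Izumo1 (chr7:45621561-45621810, plus strand) held 2, 1 and 2. The pair in Izumo1 overlaps and forms the palindrome. The window of Acrv1 (chr9:36692970-36693219, plus strand) held 0, as did those of Izumo3, Spaca4, Sun5 and Lyzl6, which had the same peak and direction of call, and Lyzl4 had 1 core site at 1 of its 3 start sites.
Spata16: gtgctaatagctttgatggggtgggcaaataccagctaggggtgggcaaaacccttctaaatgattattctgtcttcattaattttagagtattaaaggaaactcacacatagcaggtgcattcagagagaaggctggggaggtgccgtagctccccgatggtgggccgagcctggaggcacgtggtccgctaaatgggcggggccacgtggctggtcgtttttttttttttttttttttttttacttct
Prss21: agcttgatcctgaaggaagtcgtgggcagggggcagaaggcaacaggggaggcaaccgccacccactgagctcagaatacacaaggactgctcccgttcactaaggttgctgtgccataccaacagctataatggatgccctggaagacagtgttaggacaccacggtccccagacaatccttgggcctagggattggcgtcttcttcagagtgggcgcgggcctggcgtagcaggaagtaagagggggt
Spaca1: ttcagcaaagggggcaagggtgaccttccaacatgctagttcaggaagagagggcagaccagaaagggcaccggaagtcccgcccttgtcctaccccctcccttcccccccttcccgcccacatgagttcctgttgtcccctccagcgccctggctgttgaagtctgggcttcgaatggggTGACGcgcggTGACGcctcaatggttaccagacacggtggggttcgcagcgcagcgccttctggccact
Spaca3: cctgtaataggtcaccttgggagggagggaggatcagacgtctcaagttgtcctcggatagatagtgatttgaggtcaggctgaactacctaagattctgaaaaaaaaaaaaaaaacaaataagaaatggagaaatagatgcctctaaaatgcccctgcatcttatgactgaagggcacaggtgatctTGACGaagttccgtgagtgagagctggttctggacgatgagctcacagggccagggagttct
Izumo1: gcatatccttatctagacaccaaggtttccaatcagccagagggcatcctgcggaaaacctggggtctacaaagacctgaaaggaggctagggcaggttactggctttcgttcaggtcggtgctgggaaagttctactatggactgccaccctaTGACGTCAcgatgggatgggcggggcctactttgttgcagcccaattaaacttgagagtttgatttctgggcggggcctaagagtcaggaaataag
Acrv1: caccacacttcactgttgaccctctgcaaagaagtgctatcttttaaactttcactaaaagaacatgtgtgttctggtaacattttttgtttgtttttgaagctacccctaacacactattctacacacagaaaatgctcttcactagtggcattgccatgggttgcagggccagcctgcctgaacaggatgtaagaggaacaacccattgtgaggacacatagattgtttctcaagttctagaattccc

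The libraries held 13561 and 14368 barcodes in HFD 1 and HFD 2 and 15290 and 14618 in ND 1 and ND 2, with 143748262 to 154221188 unique molecular identifiers (UMIs) each. Any pair of libraries shared 42 to 65 barcodes, at most 0.465% of the smaller one. After filtering, 13094 to 14429 cells per library remained. Cells were clustered without the 36 genes, and the clusters were named by likeness to marker lists that do not contain them. In the elongating spermatid-like class, Tnp1, Prm1 and Tnp2 led cluster 0. Cluster 1 of that class had 0 elongating spermatid markers among its top 10 genes. It scored 1.706 for elongating and 1.141 for round spermatid markers. In the late spermatocyte-like class, Cdk1 led cluster 5 and Ccnb1 was among the top 10 genes of cluster 11. The pachytene spermatocyte-like class included cluster 7, with 5500 cells, mitochondrial transcripts among its leading genes and 0 pachytene markers among its top 10 genes. Cluster 5 scored 0.890 for late spermatocyte and 1.031 for pachytene spermatocyte markers, and took the former name because Cdk1 was among its top 10 genes. Cluster 10 had nearly equal scores for round spermatid (0.986) and late spermatocyte (0.954) markers and stayed unnamed. Spermatogonia-like cells numbered 46 to 67 per library and were not tested for diet.

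Along 13 germ clusters of sufficient depth, placed in order of stage, the genes peaked at different points. Levels are UMIs of a gene per 1000000 UMIs of the cluster (CPM), taken at transcript ends and not scaled by gene length. The highest mean level fell in early or pachytene spermatocyte-like clusters for 5 genes, in the late spermatocyte-like cluster 5 for 9, in cluster 10 for 2, in round spermatid-like clusters for 19 and in an elongating spermatid-like cluster for 1. The clusters share their libraries, so the order is a description without a test.

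**Figure D1:**
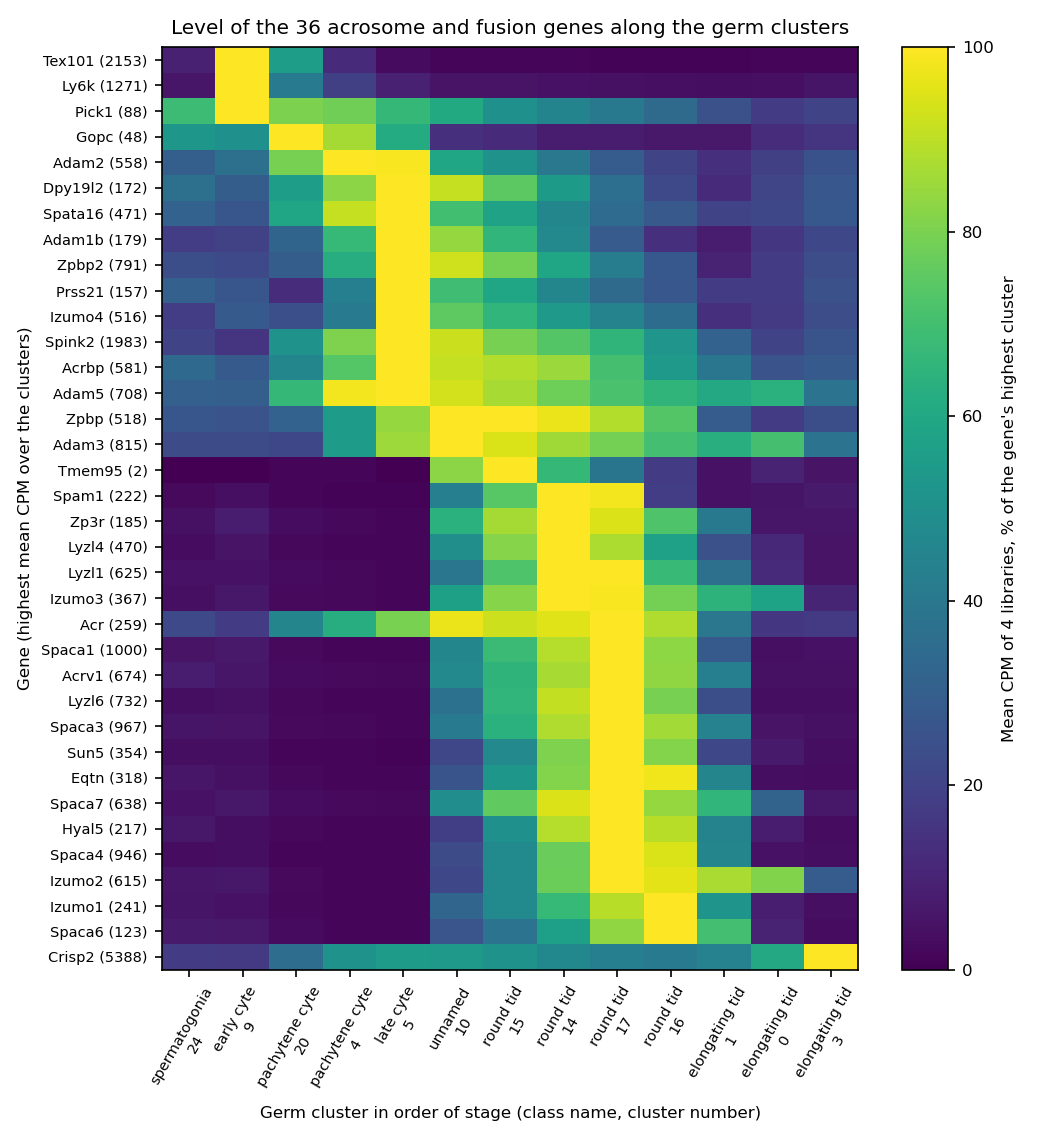
Mean CPM of each gene in 13 germ clusters, as a percentage of the gene's highest cluster, with clusters on the horizontal axis in order of stage and genes on the vertical axis in order of peak. The number after each gene is its highest mean CPM; a block of spermatid genes is dark up to cluster 5 and bright from cluster 10 to cluster 1.

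Of the genes for acrosome formation and anchoring, Spata16 and Dpy19l2 were highest in late spermatocyte-like cells and Spaca1 and Sun5 in round spermatid-like cells. SPATA16 is a Golgi and proacrosomal vesicle protein, and its loss in humans causes round-headed sperm. Spata16 reached 491.32, 492.82, 471.28 and 428.85 CPM in cluster 5 in HFD 1, HFD 2, ND 1 and ND 2, and fell to a mean of 95.8 ± 13.03 CPM (SD, n = 4 libraries) in cluster 1. Dpy19l2, which anchors the acrosome to the nuclear envelope, also peaked in cluster 5, at 172 ± 5.82 CPM. Spaca1, an inner acrosomal membrane protein needed for acrosome shape, was at 13.7 CPM in cluster 5 and at 1024.8, 973.61, 1010.5 and 992.96 CPM in the round spermatid-like cluster 17, a ratio of the means of 73.3. Sun5, which links the sperm head and tail, also peaked in cluster 17. The trafficking genes Pick1 and Gopc peaked earliest of this group, at 87.9 CPM in the early spermatocyte-like cluster 9 and at 48.4 CPM in the pachytene spermatocyte-like cluster 20.

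The acrosomal matrix, protease and inhibitor genes were split in the same way. Spink2 (a protease inhibitor of the acrosome), Zpbp2 and Acrbp (which takes part in proacrosin packaging) peaked in cluster 5, at 1983 ± 31.8, 791 ± 13.01 and 581 ± 13.8 CPM (SD, n = 4). Prss21, a membrane serine protease of sperm also called testisin, reached 160.28, 165.07, 156.29 and 145.36 CPM there, and the next highest cluster was at 109 CPM. Acr, which encodes proacrosin, was already at 207 CPM in cluster 5 and reached 259 ± 8.41 CPM in cluster 17. Acrv1, an acrosomal vesicle protein, was at 13.6 ± 2.45 CPM in cluster 5 and 674 ± 11.6 CPM in cluster 17. Both genes peaked in the same cluster, but cluster 5 was already near that peak for Acr and was the lowest of the 13 for Acrv1.

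The genes of the egg-facing membrane and the hyaluronidases were mostly round spermatid genes. Izumo1 peaked in cluster 16 at 241 ± 10.1 CPM and Spaca6, also required for fusion, at 123 ± 3.80 CPM. Izumo2 peaked in cluster 17 at 615 ± 12.9 CPM and was still at 498 ± 23.5 CPM in the elongating spermatid-like cluster 0, where Izumo1 was at 20.1 ± 2.21 CPM. Izumo4 departed from the other Izumo genes, with its peak of 516 ± 16.0 CPM in cluster 5. The hyaluronidase genes Spam1 and Hyal5 reached 222 ± 7.36 and 217 ± 9.09 CPM, with a ratio of 126 between highest and lowest cluster for Spam1. The lysozyme-like genes Spaca3, Lyzl1, Lyzl4 and Lyzl6 peaked in clusters 14 or 17. Tmem95, whose product is needed for fusion, had only 124 UMIs in all 11593 round spermatid-like cells and at most 8 in any other named germ class.

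The 4 ADAM genes peaked between the pachytene spermatocyte-like cluster 4 and cluster 10, and Adam3 and Adam5 stayed high later. Adam2 peaked in cluster 4 at 558 ± 13.1 CPM, Adam5 in cluster 5 at 708 ± 19.9 CPM and Adam3 in cluster 10 at 815 ± 10.7 CPM. In the elongating spermatid-like cluster 0, Adam3 was still at 574 ± 18.4 CPM and Adam5 at 453 ± 24.5 CPM. Tex101, which encodes a surface protein required for ADAM3 processing, was at 1959.1, 2223.2, 2253.9 and 2174.6 CPM in the early spermatocyte-like cluster 9 and at 21.5 ± 1.42 CPM in cluster 1. Ly6k, whose product binds TEX101, also peaked in cluster 9, at 1271 ± 46.9 CPM. Crisp2, a secretory protein of the acrosome and tail, was among the 3 highest of the 36 genes in each of the 5 germ classes tested. It was at 2972 CPM in cluster 5 and 2235 CPM in cluster 16, and highest at 5388 ± 145 CPM in the elongating spermatid-like cluster 3.

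RNA released from broken cells is taken up in every droplet, and its level was read in Leydig-like cells, a somatic cell type. The median depth was 5646 UMIs in 1499 Leydig-like cells, 8964 in pachytene spermatocyte-like, 2024 in late spermatocyte-like and 11335 in round spermatid-like cells. Leydig-like cells join cluster 21 (median 6086 UMIs) to cluster 19 (median 2541 UMIs), which had 0 Leydig markers among its top 10 genes. Cluster 19 held 144 of 349 Leydig-like cells in HFD 1 and 56 of 291 in HFD 2. In ND 1 it held 43 of 406 and in ND 2 98 of 453. The part of this makeup in the Leydig values here and below was not tested. Acrv1 was found in 17.5% of Leydig-like cells, in 21.1% of pachytene spermatocyte-like cells and in 91.6% of round spermatid-like cells. The mean number of UMIs per cell was 0.236, 0.259 and 7.35 in the same order, and 0.116 in the 339 macrophage-like cells. Tmem95 aside, 17 of the 19 genes with a peak in round or elongating spermatid-like clusters were at no more than 2 times the Leydig level per cell in pachytene spermatocyte-like cells, with a median ratio of 1.09. Acr and Crisp2 were the others, at ratios of 6.08 and 6.39. The 14 genes with an earlier peak were at ratios of 3.71 (Prss21) to 19.0 (Tex101) in the same cells. In early spermatocyte-like cells, 11 of those 14 were also within 2 times the Leydig level, and Tex101, Ly6k and Pick1 were above it. Macrophage-like cells, with a median of 2547 UMIs, held fewer UMIs of these genes per cell, so what counts as background depends on the reference. Spaca6 was at 0.157 UMIs per Leydig-like cell and at 0.0427 per pachytene spermatocyte-like cell. UMIs at or near the Leydig level are read below as not told apart from background. The 17 spermatid genes at that level in pachytene spermatocyte-like cells gave 3.44 and 2.69 UMIs per Leydig-like cell in HFD 1 and HFD 2 and 2.29 and 2.45 in ND 1 and ND 2, with HFD above ND. In macrophage-like cells the diets overlapped for the same genes, at 1.63 and 1.72 UMIs per cell in HFD and 1.26 and 1.75 in ND.

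**Figure D2:**
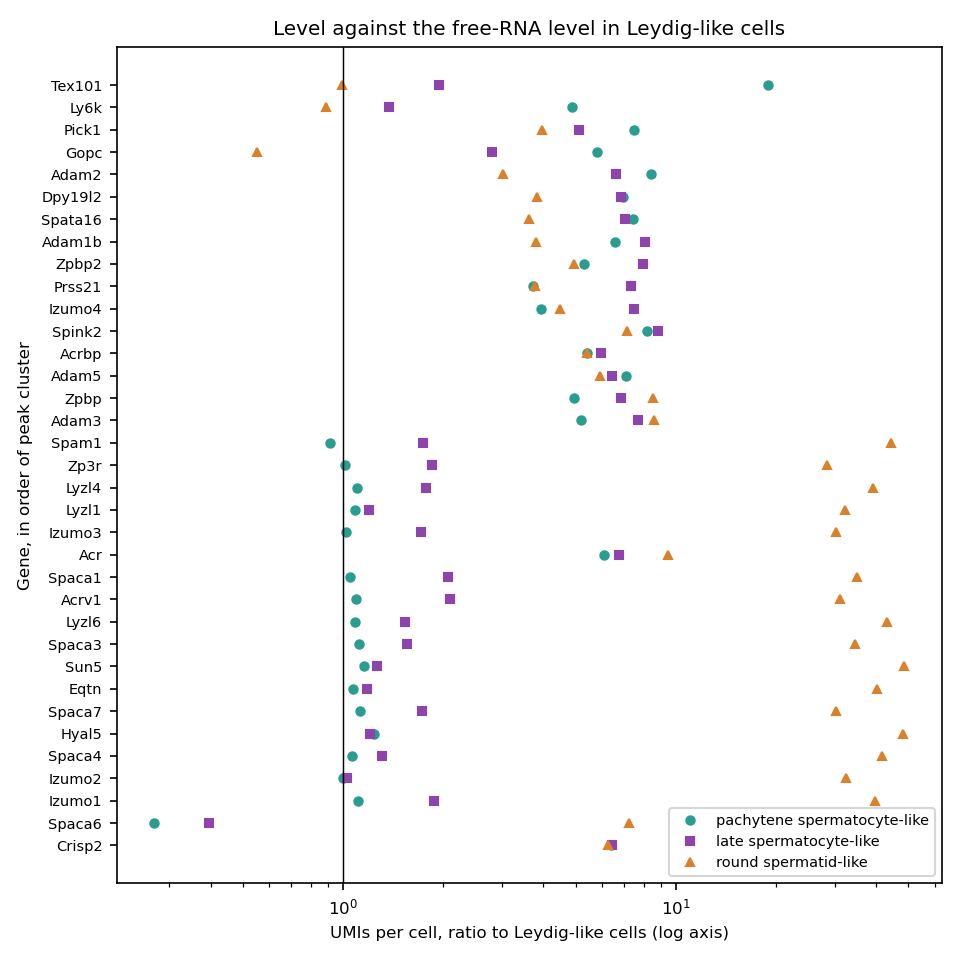
UMIs per cell of 35 genes (Tmem95 left out) in pachytene spermatocyte-like, late spermatocyte-like and round spermatid-like cells, divided by the level in Leydig-like cells, on a logarithmic horizontal axis; the line at 1 marks equal levels. Most spermatid genes sit at the line in pachytene spermatocyte-like cells and near their median of 34.5 in round spermatid-like cells, and Spaca6 lies below it in both spermatocyte classes.

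Diet was compared within each stage on UMIs summed per library. Over 5 stages there were 32 calls at an adjusted p under 0.05 (edgeR quasi-likelihood test, Benjamini-Hochberg adjustment over all genes tested in the stage). They involved 23 of the 36 genes, 7 of them higher in HFD and 16 lower, and none of the 23 was called in both directions. How many of all genes were called in any of the 5 stages, or in both directions, was not counted. These counts over the stages therefore have no background to be set against. Levels in these comparisons are CPM with scaling factors by the trimmed mean of M values (TMM). On the scale of UMIs per cell, both HFD libraries were above both ND libraries for all 12 higher calls. The same held for 100 percent of the 1615 higher calls over all genes, where a gene counts once in each stage that called it. Of the 20 lower calls, 4 had fewer UMIs per cell in both HFD libraries and the other 16 overlapped. Of the 1601 lower calls over all genes, counted in the same way, 33.4 percent were below. Over all genes and stages tested, 41.6 percent were above and 6.95 percent below per cell. Total UMIs per cell were higher in both HFD libraries than in both ND libraries in the late stage only. In the pachytene, round and elongating stages HFD 1 was above both ND libraries and HFD 2 lay between them. In the early stage both HFD libraries lay between the ND libraries. In late spermatocyte-like cells the totals were 12499 and 11785 UMIs per cell in HFD against 9770 and 9835 in ND. The part of depth in the higher and the lower calls was not tested.

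**Figure D3:**
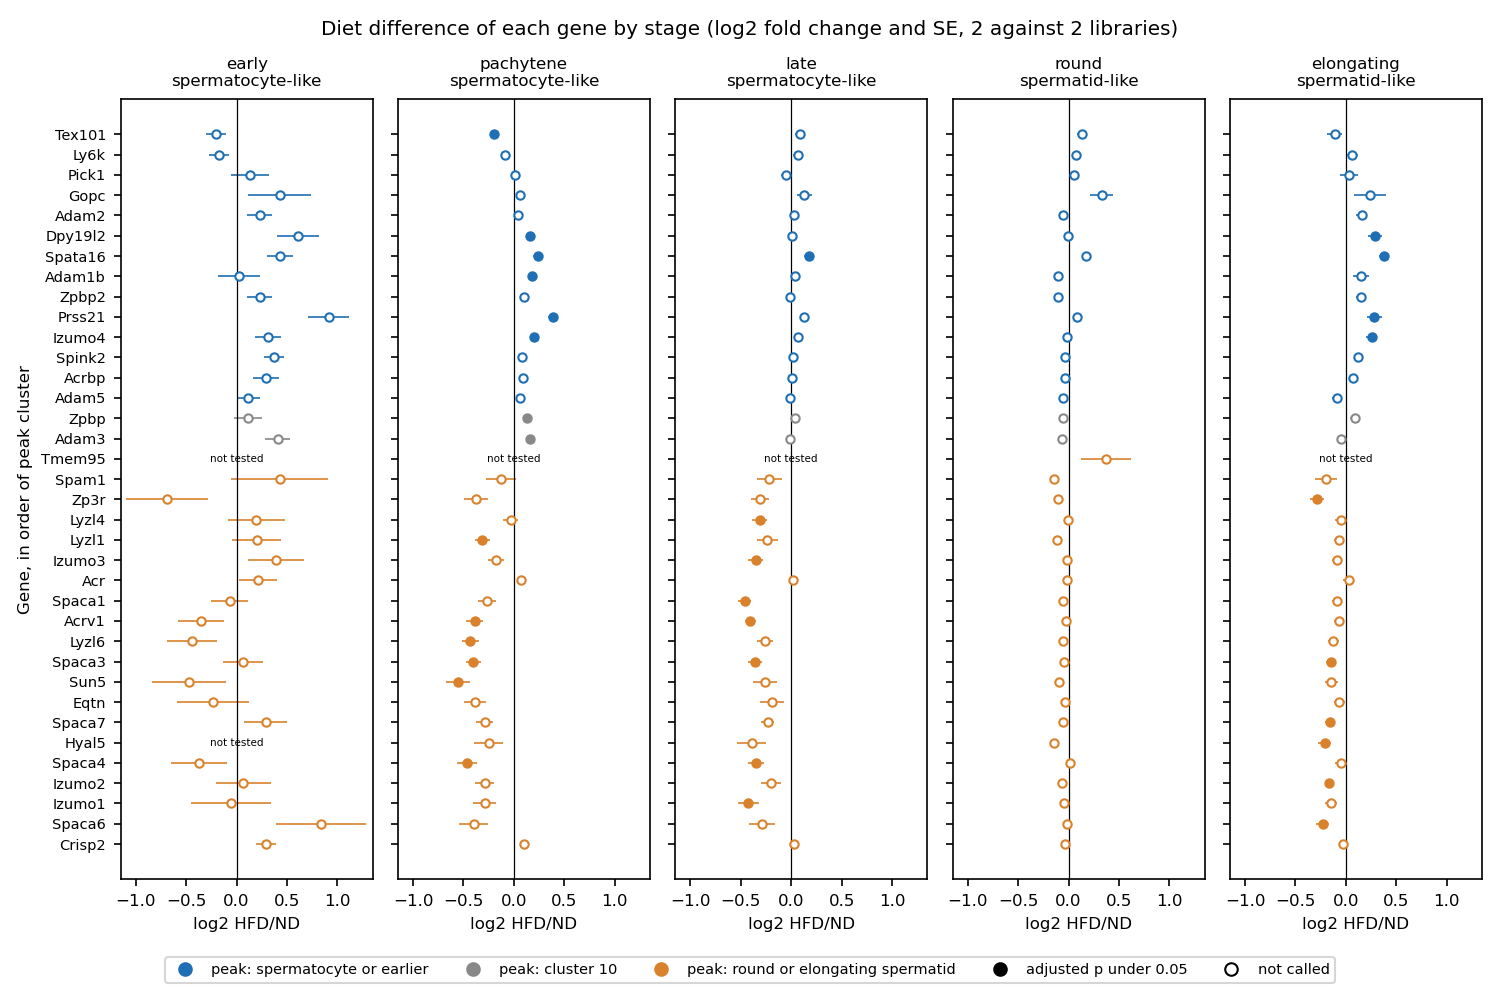
Log2 ratio of HFD over ND with its standard error for each gene in 5 stages, with genes on the vertical axis in order of peak cluster and coloured by the stage of their peak; filled points passed an adjusted p of 0.05. Genes that peak in spermatocytes lie mostly right of 0 and genes that peak in round or elongating spermatids left of it in the pachytene, late and elongating panels, and the round panel is close to 0.

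In pachytene spermatocyte-like cells, 7 genes were higher in HFD and 7 lower among 35 tested (Tmem95 had 3 UMIs and was not tested). Over all genes 6.72 percent were called, with 3.98 percent of the 18256 tested higher and 2.74 percent lower. The median change was -0.09 over the genes and -0.01 over all genes. The higher genes were Prss21, Spata16, Izumo4, Adam1b, Adam3, Dpy19l2 and Zpbp. None of them peaks in round or elongating spermatid-like clusters, and 5 of them peak in cluster 5 and 2 in cluster 10. Prss21 was at 72.518 and 67.416 CPM in HFD 1 and HFD 2 and at 56.009 and 51.036 CPM in ND 1 and ND 2. The HFD mean was 70.0 ± 3.61 (SD, n = 2) and the ND mean 53.5 ± 3.52, a log2 ratio of 0.39 (SE 0.051, adjusted p 0.001102). Spata16 was at 426.89 and 414.99 CPM in HFD and 376.3 and 338.63 CPM in ND, a log2 ratio of 0.24 (SE 0.044, adjusted p 0.00869). The lowest HFD library exceeded the highest ND library for both genes. Izumo4 was at 231.33 and 227.34 CPM against 202.33 and 197.48 CPM, a log2 ratio of 0.20 (SE 0.034, adjusted p 0.005694). Adam1b, a subunit of the fertilin-type ADAM1-ADAM2 complex of the sperm surface, rose by 0.18 on the log2 scale (adjusted p 0.01251) and Adam3 by 0.16 (adjusted p 0.01372). Dpy19l2 rose by 0.16 and Zpbp by 0.13.

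Of the lower genes, Tex101 was the one with a level well above background in these cells, 19.0 times that of Leydig-like cells. It was at 462.97 and 498.77 CPM in HFD and 565.55 and 540.18 CPM in ND, a log2 ratio of -0.20 (SE 0.040, adjusted p 0.01186). Within the deep pachytene spermatocyte-like clusters its log2 ratio was -0.045 in cluster 20 and 0.01 in cluster 4. Its level fell from cluster 20 to cluster 4, and cluster 20 held 19.2% and 20.4% of the pachytene spermatocyte-like cells in HFD and 22.6% and 25.6% in ND. The higher genes were each at a higher mean CPM in cluster 4 than in cluster 20, as Adam3 at 451 and 176 CPM. In cluster 4 both HFD libraries were above both ND libraries for all of them. In cluster 20 this held for all but Adam1b, Adam3 and Zpbp, for which the diets overlapped. These genes had been called on sums that include both clusters. The share of all genes so placed was not counted by cluster, and was 26 percent in the whole class. The part of the makeup by cluster in the fall of Tex101 and in the rises was not tested. The other 6 lower genes were Sun5, Spaca4, Lyzl6, Spaca3, Acrv1 and Lyzl1, at 1.06 to 1.15 times the Leydig level per cell, a level not told apart from background. Spaca3 was at 21.266 and 22.039 CPM in HFD and 25.991 and 31.301 CPM in ND, a log2 ratio of -0.40 (SE 0.074, adjusted p 0.007688). The 17 spermatid genes at the Leydig level together gave 2.78 and 2.40 UMIs per pachytene spermatocyte-like cell in HFD and 2.58 and 3.45 in ND, so the diets overlapped per cell. Leydig markers moved the same way, at 14.8 and 15.8 CPM in HFD and 18.5 and 21.8 CPM in ND with 2 of 6 called lower, and their part in the lower calls was not tested. The summed level of 10 round spermatid markers also overlapped, at 1251 and 1253 CPM in HFD and 1233 and 1289 CPM in ND, although 6 of the 10 were called lower. Late spermatocyte markers were at 820 and 819 CPM in HFD and 760 and 774 CPM in ND, with 3 of 10 called higher, and their part in the rise of the spermatocyte genes was not tested. With clusters weighted equally and limma on log2(CPM + 1), 3 of the 36 genes passed. Among them were Prss21 (0.23, adjusted p 0.02249) and Spaca3 (-0.38, adjusted p 0.04898), while Spata16 missed the threshold (0.20, adjusted p 0.05795). In that fit Izumo4, Adam1b, Adam3, Dpy19l2 and Zpbp had log2 ratios of 0.065, 0.057, 0.066, 0.093 and 0.041. Their adjusted p ran from 0.2298 to 0.5933 (limma). Without ND 1 the count was 26 in place of 14, and that over all genes 3277 in place of 1227. With no filter on low counts 5 of the 36 were called, and 326 over all genes.

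In late spermatocyte-like cells, Spata16 was higher and 7 genes were lower in HFD among 35 tested, where 3.68 percent of all genes were called, 1.23 percent higher and 2.45 percent lower. The median change was -0.05 over the genes and -0.01 over all genes tested. Spata16 was at 479.9 and 485.49 CPM in HFD and 449.46 and 407.9 CPM in ND, a log2 ratio of 0.17 (SE 0.042, adjusted p 0.03399). The lower genes, Spaca1, Izumo1, Acrv1, Spaca3, Izumo3, Spaca4 and Lyzl4, all peak in round spermatid-like clusters. Spaca1 was at 54.201 and 46.257 CPM in HFD and 71.203 and 67.465 CPM in ND, a log2 ratio of -0.46 (SE 0.065, adjusted p 0.001269). Acrv1 was at 39.69 and 39.452 CPM in HFD and 53.496 and 51.322 CPM in ND, a log2 ratio of -0.40 (SE 0.055, adjusted p 0.000879). Neither gene's diets overlapped. Spaca3 and Izumo3 fell by 0.36 and 0.35 on the log2 scale, and Spaca4 and Lyzl4 by 0.35 and 0.31. These 7 genes were at 1.31 to 2.10 times the Leydig level per cell, and per cell the diets overlapped for all but Acrv1. The 17 spermatid genes together gave 4.46 and 3.77 UMIs per cell in HFD and 4.14 and 4.32 in ND. This class joins cluster 5, with a median of 32387 UMIs, to cluster 11, with 1748. Cluster 5 held 24.2% and 31.8% of its cells in HFD and 22.3% and 20.5% in ND. The 17 spermatid genes were at 1048, 1066, 1025 and 1020 CPM in cluster 11 and at 111, 118, 131 and 164 CPM in cluster 5 (HFD 1, HFD 2, ND 1, ND 2). Round spermatid markers moved with the calls, at 1857 and 1821 CPM in HFD and 1962 and 1975 CPM in ND with 5 of 10 called lower, and their part was not tested. None of the 36 genes was called in cluster 5 alone (edgeR), where 0.329 percent of all genes were. Spata16 had a log2 ratio of 0.14 there and Acrv1 one of -0.40. An unadjusted p under 0.05 (edgeR), not counted over all genes, was found for 14 of the 36. None passed with equal weights for both clusters or with doublets kept, and 3 passed without HFD 2 and 4 without ND 2.

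In round spermatid-like cells, where most of these genes are at their highest, none of the 36 passed (edgeR), against a background of 1.24 percent of 19089 genes. At an unadjusted p under 0.05 (edgeR) there were 12, and DESeq2 called 1. The share of all genes at that unadjusted limit was not counted. The changes ran from -0.15 (Spam1) to 0.37 (Tmem95), with a median of -0.04. Both HFD libraries were below both ND libraries for 25 of the 36 genes, while 23.3 percent of all genes tested were so placed. The differences were small. Spam1 was at 149.6 and 150.19 CPM in HFD and 160.94 and 171.47 CPM in ND (log2 ratio -0.15, SE 0.037, adjusted p 0.06811). Izumo1 had a log2 ratio of -0.05 (SE 0.033, adjusted p 0.5278). Spata16 was again higher, at 208.6 and 210.94 CPM in HFD and 194.38 and 176.85 CPM in ND (log2 ratio 0.18, SE 0.041, adjusted p 0.05605). The summed round spermatid markers were at 8112 and 8145 CPM in HFD and 8351 and 8328 CPM in ND, with 1 of 10 called lower, and their part in the lower values was not tested. Without ND 1, 13 of the 36 genes passed, and the count over all genes was 2078 in place of 236.

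In elongating spermatid-like cells, 4 genes were higher and 6 lower in HFD among 35 tested, where 7.35 percent of all genes were called, 3.62 percent higher and 3.74 percent lower. The median change was -0.05 over the genes and 0.01 over all genes. The lower genes all peak in round spermatid-like clusters. Zp3r, an acrosomal matrix protein that binds the egg coat, was at 34.621 and 34.02 CPM in HFD and 41.607 and 42.053 CPM in ND (log2 ratio -0.28, SE 0.067, adjusted p 0.01422). Izumo2 was at 433.73 and 408.24 CPM in HFD and 463.97 and 480.24 CPM in ND (log2 ratio -0.17, SE 0.042, adjusted p 0.02185). The diets did not overlap in CPM for either gene, but on UMIs per cell they overlapped for all 6 lower genes. Spaca6 fell by 0.23 and Hyal5 by 0.21 on the log2 scale. Spaca7 fell by 0.16 and Spaca3 by 0.15 (adjusted p 0.04991). Izumo2 was at 16.7 times the Leydig level per cell, and the other 5 at 1.94 (Spaca6) to 7.97 (Spaca7) times. All 6 had a higher mean CPM in cluster 1 than in clusters 0 and 3. Cluster 1 held 17.5% and 19.0% of the cells of this class in HFD and 21.2% and 20.5% in ND. Within cluster 1 the diets overlapped in CPM for Spaca3, Spaca6, Spaca7 and Hyal5, while Zp3r and Izumo2 were below in both HFD libraries. In CPM without TMM, Spaca6 was below in cluster 0 and Izumo2 and Hyal5 in cluster 3, and the rest overlapped there. Of the 36 genes, 2 were called lower in cluster 0, 2 in cluster 3 and 0 in cluster 1 (edgeR). Over all genes 3.88, 4.07 and 0.195 percent were. The part of that makeup in the lower calls was not tested.

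The 4 higher genes in these cells were Spata16, Dpy19l2, Prss21 and Izumo4, all of which peak in cluster 5. Spata16 was at 122.42 and 126.05 CPM in HFD and 97.966 and 92.815 CPM in ND (log2 ratio 0.38, SE 0.052, adjusted p 0.000388). The log2 ratio was 0.29 for Dpy19l2, 0.28 for Prss21 and 0.26 for Izumo4. All 4 were at 0.908 to 1.13 times the Leydig level per cell here, a level not told apart from background. In Leydig-like cells both HFD libraries were above both ND libraries per cell for Spata16, Prss21 and Izumo4, and Dpy19l2 overlapped. In macrophage-like cells this held for Spata16, Izumo4 and Dpy19l2, whereas Prss21 was at 0.132 and 0.203 UMIs per cell in HFD and 0.224 and 0.202 in ND. The calls were made on CPM, where the placing differed. In CPM without TMM, Leydig-like cells were above in both HFD libraries for Spata16 and Prss21, and Izumo4 and Dpy19l2 overlapped. Macrophage-like cells were above in CPM for Izumo4 only, with overlap for Spata16 and Dpy19l2 and lower HFD values for Prss21. The part of background in these 4 calls was not tested. Late spermatocyte markers were at 362 and 379 CPM in HFD and 299 and 305 CPM in ND, with 5 of 10 called higher. Round spermatid markers were at 6194 and 6163 CPM against 6577 and 6533 CPM with 5 of 10 called lower, and 6 of 10 elongating spermatid markers were called lower. The part of these shifts in the 10 calls was not tested. None of the 36 genes passed with clusters weighted equally (limma), DESeq2 called 4, and 2 passed without HFD 2.

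In early spermatocyte-like cells none of 34 tested genes passed (Tmem95 and Hyal5 had too few UMIs), and none of all 9144 genes did, a background of 0 percent. At an unadjusted p under 0.05 (edgeR) there were 8 of the 34, and DESeq2 called 0. The share of all genes at that unadjusted limit was not counted. Prss21 was at 90.056 and 91.645 CPM in HFD and 41.055 and 55.35 CPM in ND (log2 ratio 0.91, SE 0.207, adjusted p 0.1289), and Spata16 had a log2 ratio of 0.43 (adjusted p 0.2442). Their levels here were 1.24 and 1.15 times those of Leydig-like cells.

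Over all genes, 3.98, 1.23, 0.639 and 3.62 percent were called higher in pachytene, late, round and elongating stages, and 2.74, 2.45, 0.597 and 3.74 percent lower. By role, the calls over the same stages in turn were as follows, without a test of any role. Of the 6 genes for acrosome formation and anchoring, 2, 1, 0 and 2 were higher in HFD and 1, 1, 0 and 0 lower. Of the 9 matrix, protease and inhibitor genes, 2, 0, 0 and 1 were higher and 1, 1, 0 and 2 lower. Of the 8 tested genes for egg membrane interaction and fusion, 1, 0, 0 and 1 were higher (Izumo4 both times) and 1, 3, 0 and 2 lower. Of the 6 ADAM and partner genes, 2, 0, 0 and 0 were higher and 1, 0, 0 and 0 lower. Of the 4 lysozyme-like genes none was higher and 3, 2, 0 and 1 were lower, and of the 2 hyaluronidase genes 1 was lower in the elongating stage. The lysozyme-like genes called in the pachytene stage were at 1.09 to 1.12 times the Leydig level per cell, and those in the late stage at 1.56 and 1.78 times. Several of these genes overlap another annotated gene on the same strand (Izumo1 with Rasip1, Spaca6 with Mir99b, Zpbp with Gm26458), so their counts are less certain.

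Spata16 (chr3:26637620-26983212, plus strand, GRCm38, a protein-coding gene with no overlapping annotation) was on one side throughout. It was higher in HFD in 5 of 5 stages and in 17 of 17 germ clusters, and both HFD libraries were above both ND libraries in each of the 17. It was called higher in clusters 0, 1, 3, 7, 14 and 20, where 2.37, 0.203, 1.37, 0.455, 0.399 and 0.294 percent of all genes were. The log2 ratio ran from 0.12 in cluster 10 to 0.43 in cluster 0. Clusters 0, 1 and 3 are of the elongating spermatid-like class, where Spata16 was at 1.13 times the Leydig level per cell. In the early spermatocyte-like class, which holds clusters 9 and 22, it was at 1.15 times that level. Neither class level is told apart from background. Of 4397 genes tested in all 17 clusters, 6 were placed above in every one, or 0.136 percent, and Spata16 was the single one of the 27 acrosome and fusion genes among them. The clusters share the same 4 libraries and are not independent. Outside the germ line, both HFD libraries were also above both ND libraries per cell in Leydig-like, Sertoli-like and macrophage-like cells. Leydig-like cells had 1.15 and 0.711 UMIs of Spata16 per cell in HFD and 0.505 and 0.475 in ND. Sertoli-like cells had 1.15 and 1.06 against 0.824 and 0.794. In CPM, Leydig-like cells were at 184 and 128 in HFD and 92.3 and 91.8 in ND. Sertoli-like cells were at 227 and 216 CPM against 182 and 167 CPM. Macrophage-like cells had 0.632 and 0.770 against 0.571 and 0.545 per cell, but overlapped in CPM, at 197 and 275 in HFD and 217 and 209 in ND. In pachytene, late and round stages the gene was at 7.42, 7.06 and 3.62 times the Leydig level, so its level there was above background. Prss21 (chr17:23868056-23873114, plus strand) was likewise higher in all 17 clusters, without overlap of the diets in 12. The share of all genes with either pattern was not counted. Prss21 was called in clusters 3 and 4 (0.767 percent of genes were called higher in cluster 4). Its log2 ratios ran from 0.03 in cluster 11 to 1.28 in cluster 9. Cluster 9 held 58 to 92 cells per library, and Prss21 was not called there, at 56.1 and 62.9 CPM in HFD and 19.8 and 28.0 CPM in ND. Over the 5 stages, Spata16 and Prss21 were above in all, as were 3.06 percent of 8745 genes, and Zp3r, Sun5 and Lyzl6 were below in all, as were 1.21 percent. In early and pachytene spermatocyte-like cells Zp3r, Sun5 and Lyzl6 were at 0.937 to 1.15 times the Leydig level per cell. Prss21 was at 1.24 times in early spermatocyte-like and 1.03 times in elongating spermatid-like cells. Such levels are not told apart from background.

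**Figure D4:**
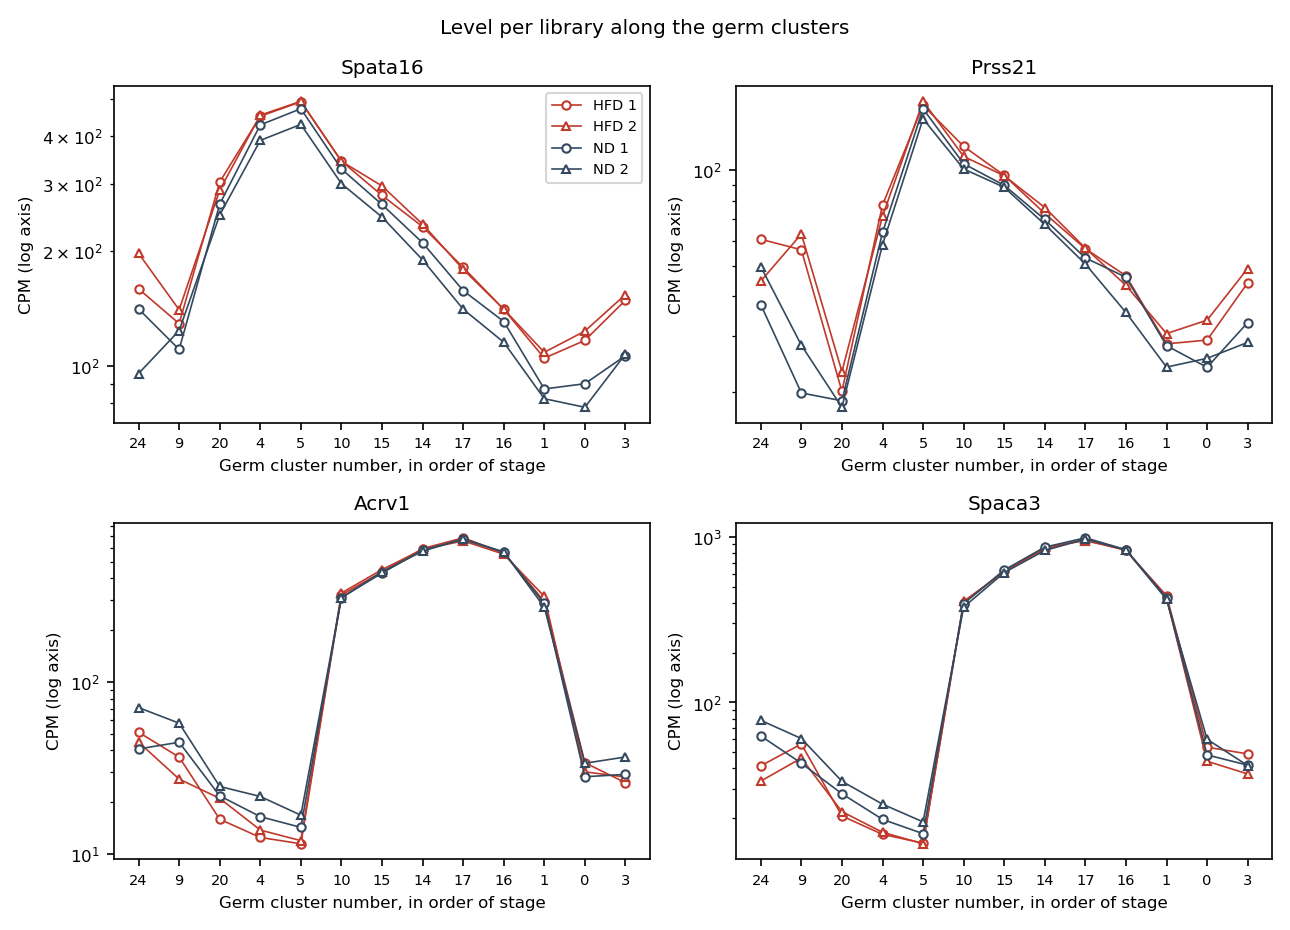
CPM of Spata16, Prss21, Acrv1 and Spaca3 in each library (red HFD, dark ND; circles replicate 1, triangles replicate 2) along the 13 germ clusters, on logarithmic vertical axes. Both red lines of Spata16 lie above both dark lines in all 13 clusters, while those of Acrv1 and Spaca3 lie below in clusters 20, 4 and 5, where levels are near background, and these 2 genes rise steeply from cluster 10 in every library.

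Whether the diet change differed between stages was tested as an interaction in each of 10 pairs of stages. None of the 36 genes was called in opposite directions in a pair. The difference passed for 11 genes between pachytene and round stages, 2 between late and round, and 1 between round and elongating (edgeR). The share of all genes that passed in these pairs was not counted, so the counts cannot be set against a background. Adam3 had a log2 ratio of 0.16 in pachytene spermatocyte-like and -0.07 in round spermatid-like cells, a difference of -0.25 (adjusted p 0.01264). Adam1b went from 0.18 to -0.10 (adjusted p 0.02179) and Izumo4 from 0.20 to -0.02 (adjusted p 0.02158). Spata16 was not among them.

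Other genes of the same biology, from 3 lists of ADAM chaperones, acrosome formation and acrosomal matrix, were looked up for comparison, and 42 of 43 were found. In pachytene spermatocyte-like cells 3 of 41 tested were higher and 7 lower, in late spermatocyte-like cells 0 and 6, in round spermatid-like cells 0 and 1, and in elongating spermatid-like cells 0 and 6. Their median changes were -0.14, -0.09, -0.02 and -0.10. Over all genes, 3.98, 1.23, 0.639 and 3.62 percent were called higher in these stages and 2.74, 2.45, 0.597 and 3.74 percent lower. The level of these other genes in Leydig-like cells was not read, so their calls were not set against background. In pachytene spermatocyte-like cells Glipr1l1 and Cmtm2b rose by 0.15 each and Fam209 and Spata46 fell by 0.30 and 0.26 on the log2 scale. In late spermatocyte-like cells Tmem190, Spata46, Ace (the testis form of the angiotensin-converting enzyme) and Actl7a (an actin-like protein of the acrosome) fell by 0.38, 0.37, 0.37 and 0.29. Glipr1l1 fell by 0.14 in round spermatid-like cells. In elongating spermatid-like cells Calr3, a testis chaperone for ADAM3, fell by 0.23, Pmis2 and Prss37, both required for ADAM3 on sperm, by 0.20 each, and Capza3, an actin-capping protein, by 0.15. Calr3 was at 246.76 and 246.16 CPM in HFD and 293.18 and 286.5 CPM in ND, with no overlap.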

How the data were processed

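The deposited files hold UMI counts, whole numbers per gene and cell barcode, which the authors made with 10x Genomics software. The file headers give software version 3.0.2, and the submitters' processing notes give genome build mm10. Other settings are not given in the sources used here. All 55450 gene identifiers and symbols match GENCODE M21 (GRCm38). The genes described, the other lists and the tests were chosen with earlier results of these data known.

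Cells with fewer than 200 genes or over 20% mitochondrial UMIs were left out (13 to 42 per library), as were 449 to 890 doublets called with Scrublet (expected rate 0.1). Cells were clustered with scanpy 1.11.5 on 2000 variable genes without the 36 genes (30 components, 15 neighbours, Leiden resolution 1). Clusters were named from marker lists, and where the 2 best scores differed by less than 0.3 the class with more markers among the cluster's top 10 genes was taken, or no name on a tie, a rule chosen after seeing the data. Germ clusters with a median depth of at least 0.6 of their libraries' median were ordered first by class name, from spermatogonia to elongating spermatid. Cluster 10 was placed just before the round spermatid-like clusters. Pachytene spermatocyte-like clusters were ordered by falling early spermatocyte markers. Within the other classes, clusters were ordered by the ratio of elongating spermatid to early and pachytene spermatocyte markers. That ratio alone would give a different order over all clusters.

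Counts were summed per library and stage and tested with edgeR 4.0.16 in R 4.3.3 (filterByExpr, TMM, quasi-likelihood, Benjamini-Hochberg over all genes tested, threshold 0.05), with at least 50 cells per library required. The interaction was planned for genes called in opposite directions and was read for all 36. Named genes passed the test, had no overlap of the diets and a mean of at least 20 CPM, up to 8 per direction, with up to 4 from the other lists, and the 3 highest per stage were named as levels. Other genes named with values were chosen after these were seen. Alternatives were DESeq2 1.42.0, limma 3.58.1 with a pseudocount of 1, RLE scaling, no filter, a replicate block, leaving out each library, a 10% mitochondrial limit, doublets kept, resolution 2 and the 36 genes used for clustering. Sequences are from RefSeq (GRCm38.p6).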

Additional observations from a re-analysis of the deposited data

Results flagged for a closer look

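The diet change differed between 2 stages, by an interaction test in edgeR with Benjamini-Hochberg adjustment over all genes of the pair, for the following genes. Values are log2 differences of the HFD to ND ratio, and the 2 sums of a library were treated as independent. From pachytene spermatocyte-like to round spermatid-like cells the ratio was lower by these amounts for genes that peak in spermatocytes or cluster 10. They were -0.32 for Prss21, -0.30 for Adam1b, -0.25 for Adam3, -0.24 for Izumo4, -0.22 for Zpbp2 and -0.21 for Zpbp. It was higher by 0.46 for Spaca4, 0.44 for Sun5, 0.35 for Lyzl6, 0.34 for Spaca3 and 0.31 for Tex101. Apart from Tex101, these 5 genes were near the Leydig level in pachytene spermatocyte-like cells. From late spermatocyte-like to round spermatid-like cells the ratio was higher by 0.40 for Spaca1 and 0.37 for Acrv1. From round to elongating spermatid-like cells it was higher by 0.30 for Izumo4, which was at the Leydig level in the latter.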

How the results depend on the processing

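The number of the 36 genes called was 14 in pachytene spermatocyte-like cells, 8 in late spermatocyte-like, 0 in round spermatid-like, 10 in elongating spermatid-like and 0 in early spermatocyte-like cells. With clusters weighted equally (limma) it was 3, 0, 1, 0 and 0, and with DESeq2 13, 4, 1, 4 and 0. With no filter on low counts it was 5 in pachytene cells. The count over all genes moved too. In pachytene cells it was 1227 in the main fit, 108 with equal weights, 513 with DESeq2 and 326 with no filter. In late cells it was 613 in the main fit and 172 with DESeq2. An alternative chosen after seeing the data left out clusters of low depth. In late cells the number of the 36 genes called was 0 with that alternative, 0 with doublets kept and 18 at resolution 2. In round cells it was 1 with RLE scaling, 2 with doublets kept, 6 with a 10% mitochondrial limit and 3 with the 36 genes used for clustering. For these late and round settings the count over all genes is not given here. Other counts under an alternative, here and above, lack it too unless the total stands beside them. Such counts have no background to be set against and are not read as particular to the 36 genes. Leaving out 1 library gave 10 to 26 in pachytene, 3 to 11 in late, 0 to 13 in round, 2 to 10 in elongating and 0 to 0 in early cells. Whether equal replicate numbers mark paired samples is not known. Deviations of HFD 1 and ND 1 from their diet means correlated at -0.05 to 0.04 over genes. With 2 libraries per diet this cannot exclude pairing. With the replicate block the counts were 19, 8, 4, 9 and 0. Signs turned, without a call, for Izumo3 (0.0584) and Lyzl4 (0.0822) in late cells with doublets kept, and with clusters weighted equally for Lyzl4 in late cells (0.049) and Spaca3 in elongating cells (0.0054). The cause of these shifts was not tested. Of 26 named results, 26 stayed past the threshold with RLE scaling, 17 with DESeq2, 12 without HFD 2 and 2 with clusters weighted equally, Prss21 and Spaca3 in pachytene cells. Spermatogonia-like cells were too few for any alternative to be run.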
